A study of Mus musculus with 18 samples.

Results

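Complement is a system of serum proteins that mark foreign or damaged surfaces. It is started along the classical pathway by the C1 complex, in which *C1ra* and *C1s1* encode the C1r and C1s proteases, and along the lectin pathway by proteases that include the product of *Masp1*. Both routes cleave C4 (*C4b*) and C3 (*C3*), the alternative pathway amplifies C3 cleavage through factor B (*Cfb*), and the host restrains the cascade with C1 inhibitor (*Serping1*), decay-accelerating factor (*Cd55*) and clusterin (*Clu*). The liver makes most circulating complement, but fibroblasts and other mesenchymal cells also secrete several components.

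These 9 genes were taken by symbol from an RNA-seq count table of 35275 genes, and each symbol matched 1 gene. The table covers 18 libraries of total RNA from mouse malignant peripheral nerve sheath tumor (MPNST) lines. MPNST is a soft tissue sarcoma that arises along nerves, often after loss of the Ras regulator *Nf1*. Tumors were made in wild-type 129 Sv/Jae mice by injecting the sciatic nerve with an adenovirus that carried Cas9 under a CMV promoter, which is not specific to a cell type, together with guide RNAs. *Nf1* was targeted in every tumor. In the *Nf1*/*p53* dKO (double knockout) genotype the second target was *p53* (*Trp53*), and in the *Nf1*/*Cdkn2a* dKO genotype it was *Cdkn2a*, which encodes p16 and p19. Each genotype is represented by 3 cell lines, each grown from a separate tumor, and each line by 3 untreated cultures in serum-containing medium. The labels give the cell type as mesenchymal, and the age of the mice is not given in the sources used here. Below, the lines are called p53 lines 1, 2 and 3 and Cdkn2a lines 1, 2 and 3. The comparison asks how these genes differ between tumors that lost *p53* and tumors that lost *Cdkn2a*, and how they vary among tumors of 1 genotype.

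The libraries held 19560535 to 28312207 counts, with a median of 23149777. Since cultures of a line share a tumor, their counts were summed, which left 3 lines against 3 with 65206479 to 73065228 counts each. Levels are in CPM, a gene's counts scaled to a fixed library total, after TMM scaling, a correction for library composition. *Trp53* RNA, at 58.6 to 94.1 CPM in the p53 lines and 185 to 247 CPM in the Cdkn2a lines, differed between the genotypes (adjusted p = 0.0361, edgeR's quasi-likelihood test). RNA of *Nf1* and *Cdkn2a* was present in every line and did not pass that test, so the transcript level of *Cdkn2a* does not check the label of the Cdkn2a lines. The 10 fibroblast and mesenchymal markers summed to 9821 to 23606 CPM in a line, whereas the 5 hepatocyte markers summed to at most 0.0902 CPM. Of the macrophage markers, *Aif1* and *Tyrobp* stayed at or under 0.0313 CPM and *Ptprc* at or under 0.563 CPM. *Cd14* stood higher, at 7.86 to 27.8 CPM, and *Cd68* at 1.96 to 7.14 CPM. *Csf1r* held 0.721 to 3.17 CPM and *Mrc1* 0.500 to 3.73 CPM. In single lines the macrophage list summed to 14.6 to 39.7 CPM, the Schwann list to 6.13 to 83.4, the adipocyte list to at most 23.8, the neutrophil list to at most 10.3, the endothelial list to at most 2.5 and the lymphocyte list to at most 0.313. The Schwann cell regulator *Sox10* had 18 counts in all libraries together.

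Of the 9 genes, 7 had enough counts to be tested between genotypes (15207 genes in all), and *C4b* and *Cfb* did not. None of the 7 differed between the genotypes at an adjusted p under 0.05, against 1.8% of all genes tested, and none had an unadjusted p under 0.05 (22.4% of all genes). DESeq2 on the same 6 lines gave *Masp1* no adjusted p and called none of the other 6. In none did the 3 lines of one genotype lie wholly above the 3 of the other (31.4% of all genes). The median log2 fold change of the 7 was 0.37, with 4 above 0 and 3 below, beside a median of -0.02 over all genes tested. Positive values mean higher in *Nf1*/*Cdkn2a* dKO throughout. The differences lay between lines: all 7 differed among the 3 lines of *Nf1*/*p53* dKO and all 7 among those of *Nf1*/*Cdkn2a* dKO, where 73.2% and 56.8% of all genes did. That test used edgeR on the 18 cultures with 1 level per line, and its p-values measure the spread between cultures of a line only, which may be technical. In bulk RNA, fewer cells that express a gene and less RNA per cell cannot be told apart.

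**Figure D1:**
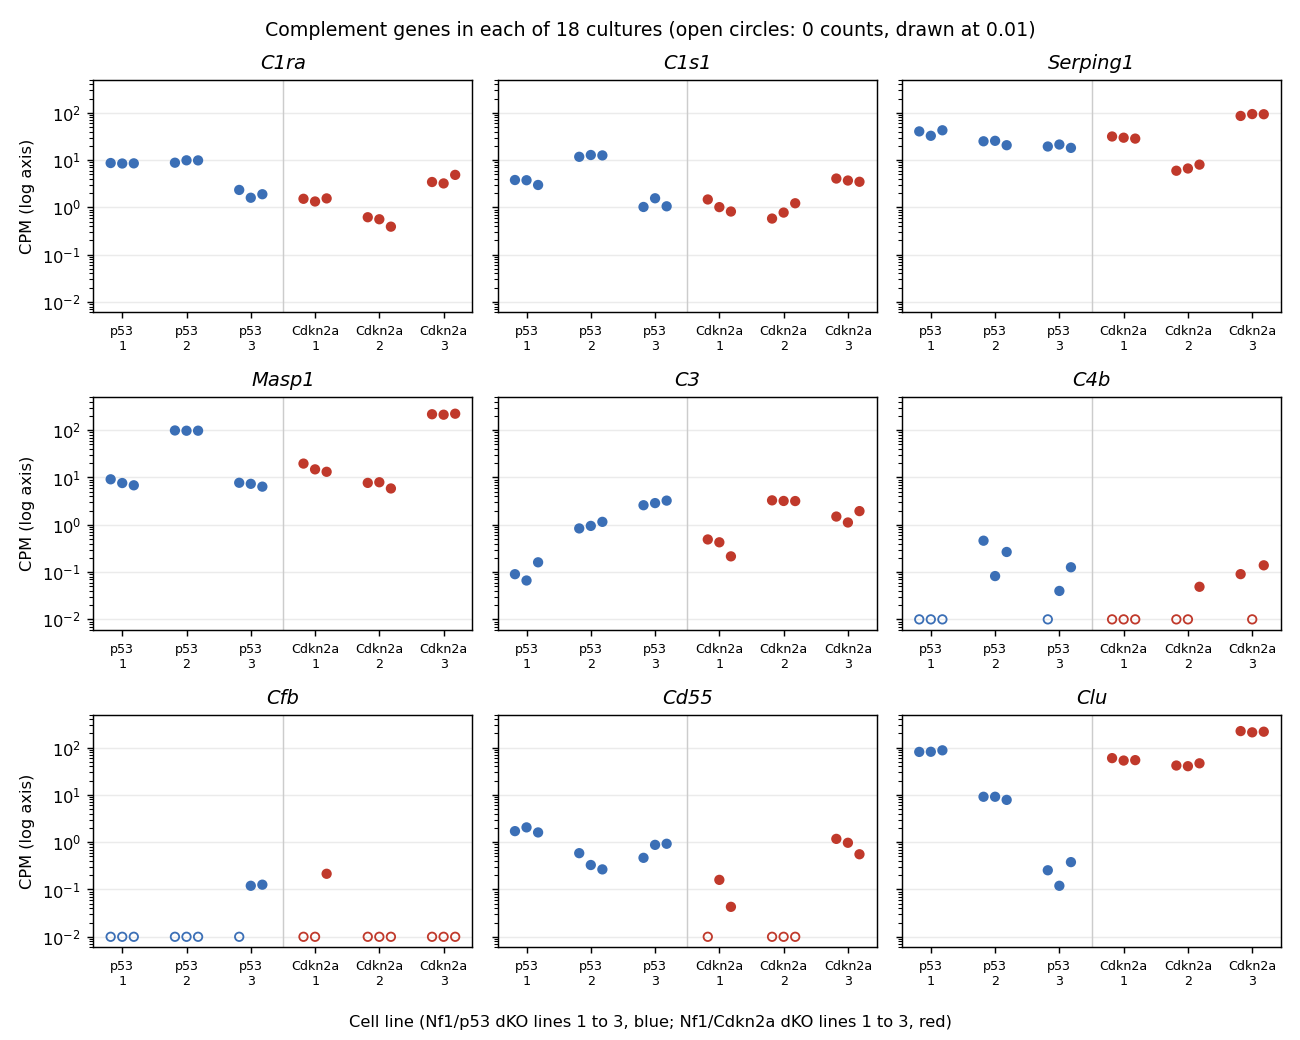
CPM (log axis) of the 9 complement genes in every culture, 3 points per cell line, with *Nf1*/*p53* dKO lines in blue, *Nf1*/*Cdkn2a* dKO lines in red and open circles for cultures with 0 counts, drawn at 0.01. The cultures of a line lie close together for the better-covered genes, and lines of 1 genotype lie far apart, as for *Clu*, from 0.249 to 83.0 CPM in the p53 lines.

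*C1ra* (chr6:124512405-124523443 of GRCm38, plus strand) and *C1s1* (chr6:124530345-124542359, minus strand) encode the paired proteases of the C1 complex and lie 6901 bases apart. *C1ra* stood at 8.49, 9.50 and 1.94 CPM in p53 lines 1, 2 and 3, and at 1.48, 0.533 and 3.86 CPM in Cdkn2a lines 1, 2 and 3. The level was high in p53 lines 1 and 2, while p53 line 3 sat within the range of the Cdkn2a lines. Mean levels were 6.64 ± 4.11 CPM (SD, n = 3) and 1.96 ± 1.72 CPM (SD, n = 3), a log2 fold change of -1.76 (SE 0.86) that missed the threshold (adjusted p = 0.282, edgeR). Cultures of adjacent lines in the order of *C1ra* never overlapped: p53 line 2 spanned 8.80 to 9.88 CPM, p53 line 1 spanned 8.46 to 8.66 CPM, and Cdkn2a line 2, the lowest, spanned 0.391 to 0.619 CPM. *C1s1* stood at 3.49, 12.4 and 1.22 CPM in the p53 lines and at 1.09, 0.836 and 3.77 CPM in the Cdkn2a lines. It was highest in p53 line 2, where its cultures held 11.7 to 12.8 CPM, and p53 line 1 and Cdkn2a line 3 overlapped. Its genotype difference was -1.58 on the log2 scale (SE 0.96, adjusted p = 0.377, edgeR), and without p53 line 2 it shrank to -0.30.

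Counting the 18 cultures as separate samples changed the call for both proteases. *C1ra* then fell by 1.79 on the log2 scale in *Nf1*/*Cdkn2a* dKO (adjusted p = 0.00643, edgeR) and *C1s1* fell by 1.59 (adjusted p = 0.0270, edgeR), in a test that called 46.5% of all genes and 24.7% as lower. DESeq2 on the 18 cultures called the same 2 of the 9 genes, and 39.3% of all genes. That count takes 9 cultures of 3 tumors as 9 independent samples.

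Across the 6 lines the logged levels of *C1ra* and *C1s1* had a Pearson's r of 0.90, and across the 18 cultures, which share lines, 0.86. Both were highest in p53 line 2 and lowest in Cdkn2a line 2. The summed fibroblast and mesenchymal markers were 13782, 23606 and 9821 CPM in p53 lines 1 to 3 and 16858, 11453 and 18143 CPM in Cdkn2a lines 1 to 3. They were thus also highest in p53 line 2, but lowest in p53 line 3. *Col1a1*, *Col1a2*, *Col3a1*, *Pdgfrb* and *Fn1* peaked in p53 line 2. The rest of the list peaked elsewhere, *Dcn* and *Lum* in p53 line 3, *Pdgfra* and *Thy1* in Cdkn2a line 3 and *Vim* in Cdkn2a line 1. The part of these markers in the levels of *C1ra* and *C1s1* was not tested. *C1s1* shares 576 exon bases with the antisense gene *Gm16567*, which had 0 counts in every library. The neighbouring copies *C1rb* and *C1s2* held 0 and 34 counts in all libraries together, but reads of near-identical stretches could be split between copies, so the levels of *C1ra* and *C1s1* are uncertain to that extent.

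The promoters of *C1s1* and *C3* are shown because they hold the motif matches found, described below. Both are the 250 bases before the RefSeq start in GRCm38.p6, minus strand, at chr6:124542360-124542609 and chr17:57228137-57228386, with matches to the C/EBP motif TTGCNNAA in capitals. C/EBP factors are known to switch on acute phase and complement genes.
C1s1: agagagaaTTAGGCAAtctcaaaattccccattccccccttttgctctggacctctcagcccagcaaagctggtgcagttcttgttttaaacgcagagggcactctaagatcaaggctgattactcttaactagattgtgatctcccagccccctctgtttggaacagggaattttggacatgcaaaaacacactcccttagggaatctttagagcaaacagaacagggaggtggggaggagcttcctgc
C3: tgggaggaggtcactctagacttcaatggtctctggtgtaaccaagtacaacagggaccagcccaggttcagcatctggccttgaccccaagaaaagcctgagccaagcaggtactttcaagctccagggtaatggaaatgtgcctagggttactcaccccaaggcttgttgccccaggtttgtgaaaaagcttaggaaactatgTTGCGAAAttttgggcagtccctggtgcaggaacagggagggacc
The *C3* match began 45 bases before the start on the gene's strand. The *C1s1* match, 242 bases before the start, read TTGCCTAA on the other strand. RefSeq promoters were matched for 4 of the 9 genes (*C1ra*, *C1s1*, *C3* and *Cd55*, with 2 starts for *C1s1*). The C/EBP letters stood in 2 of these 5 promoters and in 9.56% of 32851 promoters of the same length, both strands searched. The letters of a STAT site (GAS, TTCNNNGAA), an interferon response core (ISRE, GAAANNGAA) and an NF-kB core (GGGANNTTC) stood in 0 of the 5 and in 7.02%, 7.13% and 3.23% of all promoters. GAS and ISRE matches can overlap. The promoters of *C1ra*, *Cd55* and the second *C1s1* start held none of the 4 motifs. The *C1ra* window is not printed because it runs past the start of that gene in the GENCODE annotation. A match describes the letters in this window only.

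*Serping1* (chr2:84765387-84775444, minus strand) encodes C1 inhibitor, the serpin that inactivates C1r, C1s and the lectin pathway proteases. Its level was 37.9, 23.8 and 19.6 CPM in the p53 lines and 29.9, 6.80 and 91.3 CPM in the Cdkn2a lines. The highest and the lowest line therefore carried the same genotype, 13.4-fold apart, and all 3 p53 lines lay between them. Among the p53 lines the range was 1.93-fold. The genotype means were 27.1 ± 9.56 and 42.7 ± 43.7 CPM (SD, n = 3 each), with a log2 fold change of 0.65 (SE 0.82, adjusted p = 0.672, edgeR). The sign rested on Cdkn2a line 3: without it the value was -0.56, and without Cdkn2a line 2 it was 1.17. It was also just below 0 when cultures were fitted with limma-voom and the line as a random effect (-0.05).

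*Masp1* (chr16:23449417-23520815, minus strand) gives rise by splicing to the proteases MASP-1 and MASP-3 and to a short form without a protease domain, which gene counts do not separate. Its level was 7.77, 97.9 and 7.16 CPM in the p53 lines and 15.8, 7.25 and 219 CPM in the Cdkn2a lines. In each genotype 1 line stood far above the other two. The cultures of p53 line 2 held 97.5 to 98.7 CPM and those of Cdkn2a line 3 held 213 to 223 CPM, and no culture of the other 4 lines passed 19.7 CPM. p53 line 1, p53 line 3 and Cdkn2a line 2 overlapped in their cultures. The genotype difference was 1.10 on the log2 scale (SE 1.52, adjusted p = 0.702, edgeR), and it turned to -1.70 without Cdkn2a line 3 and was 3.44 without p53 line 2. *Pdgfrb*, a receptor of mesenchymal cells named here after its values were seen, stood at 58.8, 214 and 58.6 CPM in the p53 lines and 117, 52.2 and 210 CPM in the Cdkn2a lines, highest in the same pair of lines. Its part in the *Masp1* levels was not tested. *Rtp4* lies antisense to *Masp1* with no shared exon base and stood at 0.562 to 6.26 CPM, and the paralog *Masp2* at 0.141 to 0.470 CPM.

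*C3* (chr17:57203970-57228136, minus strand), the protein on which all 3 pathways converge, was a low transcript in these cells. It stood at 0.103, 0.975 and 2.90 CPM in the p53 lines and at 0.369, 3.23 and 1.53 CPM in the Cdkn2a lines, with 632 counts in all. The 3 cultures of p53 line 1 had 2, 2 and 4 counts, and those of Cdkn2a line 2 had 85, 74 and 65. Low and high lines were thus found in both genotypes, 28.2-fold apart in *Nf1*/*p53* dKO and 8.76-fold apart in *Nf1*/*Cdkn2a* dKO. The genotype difference was 0.37 on the log2 scale (SE 1.16, adjusted p = 0.877, edgeR). It was -0.18 without p53 line 1 and -0.47 without Cdkn2a line 2.

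*C3* was negatively correlated with most of the other genes tested, and weakly with some. Its r over the 6 lines was negative with *C1ra* (-0.56), *Clu* (-0.44), *Serping1* (-0.42), *Cd55* (-0.39) and *C1s1* (-0.28) and near 0 with *Masp1* (0.10). Cdkn2a line 2, which had the most *C3*, was the line with the least *C1ra*, *C1s1*, *Serping1* and *Cd55*. These are 6 points, and each library contributes to every gene's value.

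*C4b* (chr17:34728380-34743882, minus strand) and *Cfb* (chr17:34856374-34862518, minus strand), partners of C3 in its convertases, were barely detected. *C4b* had 29 counts over 8 of 18 cultures, of which 19 fell in p53 line 2 (11, 2 and 6 in its cultures), 4 in p53 line 3, 1 in Cdkn2a line 2 and 5 in Cdkn2a line 3. *Cfb* had 11 counts over 3 cultures, 2 of p53 line 3 with 3 counts each and 1 of Cdkn2a line 1 with 5. A count of 0 in a line allows up to 3 counts, which is 0.0386 CPM for p53 line 1, and it covers counting error only. The near copy *C4a* stood at 0.502 to 1.59 CPM, and reads shared by the copies make both values uncertain. The libraries thus held transcripts of the C1 proteases and of *C3*, with *C4b* and *Cfb* near the limit of detection at this depth.

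*Cd55* (chr1:130439027-130462744, minus strand) encodes a membrane-anchored protein that speeds the decay of C3 convertases. It stood at 1.80, 0.396 and 0.761 CPM in the p53 lines and at 0.0641, 0 and 0.907 CPM in the Cdkn2a lines. Its 9 p53 cultures all had counts, from 6 to 62, while the 3 cultures of Cdkn2a line 2 had none and those of Cdkn2a line 1 had 0, 3 and 1. Cdkn2a line 3, with 26, 20 and 12 counts, overlapped p53 lines 2 and 3 in CPM but not p53 line 1. The level in p53 line 1 was at least 41.7-fold higher than the 0.0433 CPM that a count of 0 allows in Cdkn2a line 2. The genotype difference of -1.61 on the log2 scale (SE 1.45, adjusted p = 0.550, edgeR) became -4.90 without Cdkn2a line 3, still past no threshold (adjusted p = 0.188, edgeR). The test among the p53 lines depended on culture 2: without the cultures of that number the adjusted p of *Cd55* was 0.0548 (edgeR). *Cd55* shares 102 exon bases with the antisense gene *Gm16083*, which had 0 counts, and its paralog *Cd55b* was not analysed here.

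*Clu* (chr14:65968483-65981547, plus strand) encodes clusterin, a secreted chaperone that blocks assembly of the membrane attack complex. Of the 7 genes tested it had the widest range among lines on the log2 scale, where a small prior count is added to every gene. Its level was 83.0, 8.72 and 0.249 CPM in the p53 lines, a 333-fold range within 1 genotype, and 56.0, 42.9 and 218 CPM in the Cdkn2a lines, a 5.09-fold range. In counts, the cultures of p53 line 3 had 6, 3 and 9, whereas those of Cdkn2a line 3 had 4944, 4327 and 4684. The cultures of no 2 neighbouring lines in the order overlapped. p53 line 1 exceeded Cdkn2a lines 1 and 2, so that the genotypes overlapped despite a log2 fold change of 1.79 (SE 1.58, adjusted p = 0.545, edgeR). That value ran from 0.70 without Cdkn2a line 3 to 4.56 without p53 line 1. With limma-voom on the 18 cultures and the line as a random effect, *Clu* was called higher in *Nf1*/*Cdkn2a* dKO (log2 fold change 3.72, adjusted p = 0.0154), in a test that called 16.6% of all genes and 8.73% as higher.

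**Figure D2:**
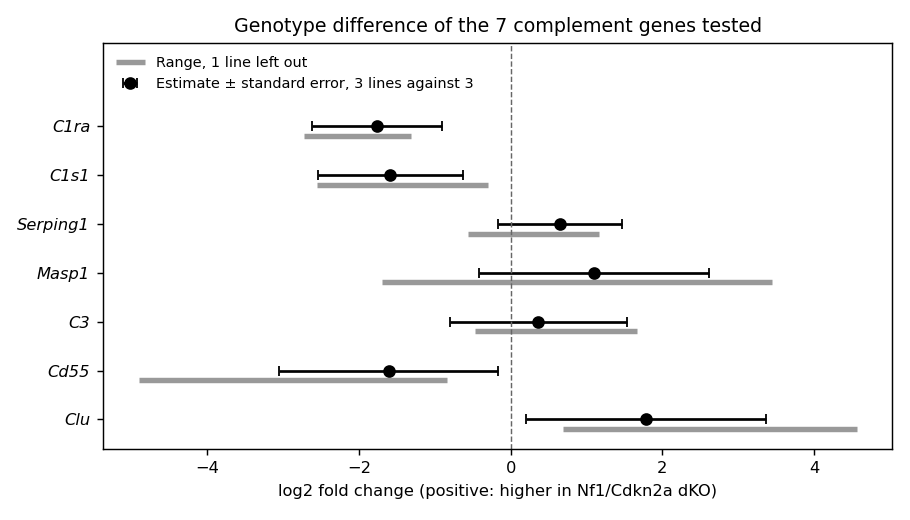
Log2 fold change between genotypes (x axis, positive for higher in *Nf1*/*Cdkn2a* dKO) of the 7 complement genes tested, as a point with its standard error from 3 lines against 3, over a grey bar for the range when each line is left out in turn. The bars of *C3*, *Masp1* and *Serping1* cross 0.

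**Figure D3:**
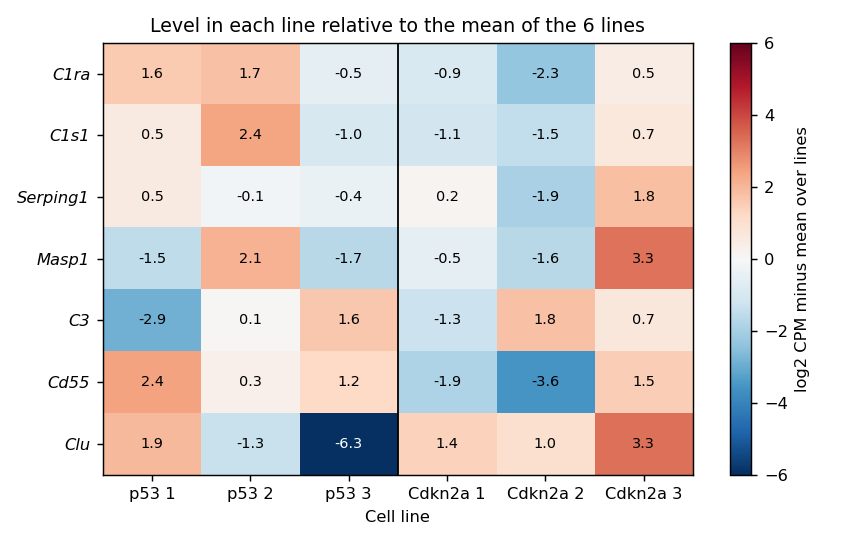
Log2 CPM of each complement gene tested (rows) in each line (columns) minus its mean over the 6 lines, with a small prior count added so that 0 can be drawn. Blue and red stand on both sides of the line that divides the genotypes, and the lowest square is *Clu* in p53 line 3.

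No line was high or low for the whole set. Cdkn2a line 3 was highest for *Serping1*, *Masp1* and *Clu*, p53 line 2 for *C1ra* and *C1s1*, p53 line 1 for *Cd55* and Cdkn2a line 2 for *C3*. Cdkn2a line 2 was lowest for 4 of the 7 genes, p53 line 3 for *Masp1* and *Clu*, and p53 line 1 for *C3*. Of 35 pairs of lines adjacent in the order of a gene, 24 did not overlap in their cultures and 11 did.

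The spread between lines is set beside that of all genes as a description. The median difference between the highest and lowest line was 4.63 on the log2 scale (prior count 2) for the 7 genes and 1.10 for all 15207 genes tested, and 6 of the 7 lay above the 90th percentile of all genes (3.81). *Serping1* lay just below it at 3.74. Within *Nf1*/*p53* dKO the medians were 3.31 and 0.69, and within *Nf1*/*Cdkn2a* dKO 3.03 and 0.49. Of the variance among cultures of 1 genotype, a median of 98.4% lay between lines for the 7 genes in *Nf1*/*p53* dKO and 96.4% in *Nf1*/*Cdkn2a* dKO, beside 86.1% and 62.7% for all genes in that test. *C3* and *Cd55* had 632 and 285 counts in all, and the part of counting error in their spread was not tested.

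Per kilobase of exon, which allows levels of different genes to be compared roughly, *Clu* was the most abundant of the 9 in 4 lines and *Serping1* in the other 2. The length merges the exons of all forms of a gene, so it can exceed that of any 1 transcript. In p53 line 2 *Serping1* (10.2 CPM per kb) and *Masp1* (9.95) were nearly equal, and their order there depends on these lengths. *Serping1* held 2.93 to 39.3 CPM per kb, and *Clu* 0.0724 to 63.5. *Masp1* held 0.729 to 22.3 CPM per kb, *C1ra* 0.179 to 3.19 and *C1s1* 0.267 to 3.95. *C3* held at most 0.628 CPM per kb and *Cd55* at most 0.372. On this scale, in every line, the transcript of C1 inhibitor exceeded those of the 2 C1 proteases it acts on, from 2.59-fold over *C1s1* in p53 line 2 upward.

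**Figure D4:**
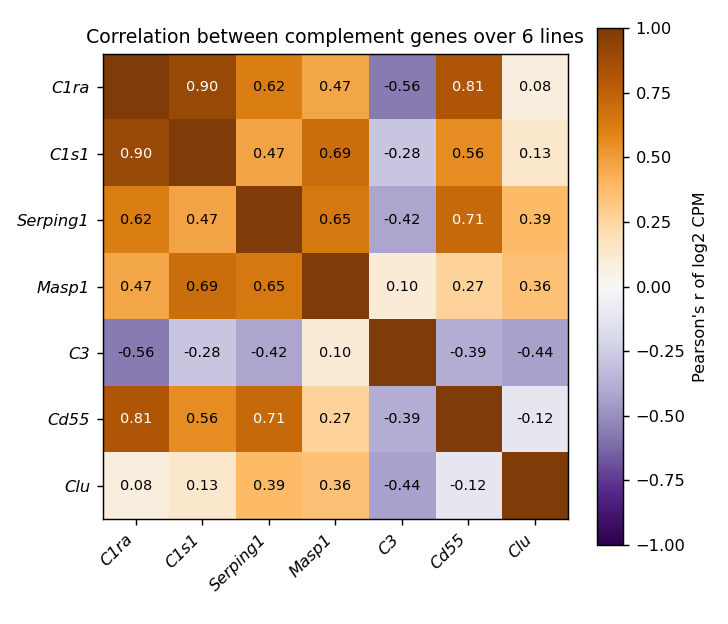
Pearson's r between the logged levels of the 7 complement genes over the 6 lines (colour and number). *C1ra* and *C1s1* have the highest value, 0.90, and the row of *C3* is mostly below 0.

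*C1ra* was also positively correlated with *Cd55* (r = 0.81 over 6 lines) and *C1s1* with *Masp1* (0.69), and *Serping1* was positive with each gene but *C3*, from 0.39 to 0.71. *Clu* was near 0 with *C1ra* (0.08) and *C1s1* (0.13). Some pairs with *Clu* differed when lines were ranked (Spearman's correlation over 6 lines). Ranks gave 0.83 with *Serping1*, 0.60 with *Masp1* and 0.43 with *Cd55*, where Pearson's r was 0.39, 0.36 and -0.12. With *C1ra* (0.09) and *C1s1* (0.14) the rank values stayed low, and with *C3* the value was -0.43. Among 12309 other genes of at least 1 CPM on average, those closest to each member over the 18 cultures were *Ephb2* for *C3* (r = 0.90), *Psd3* for *C1s1* (0.95), *Enpp5* for *C1ra* (0.97), *Hspb6* for *Serping1* (0.96), *Dkk3* for *Cd55* (0.95, among 12310), *Mmp19* for *Masp1* (0.97) and *Ntm* for *Clu* (0.99). Next in order came *Nf2* and *Olfm1* for *C3*, *Csf1* and *Cd99l2* for *C1s1*, *Fam115a* and *Myl9* for *C1ra*, *Dusp10* and *Inpp5b* for *Serping1*, *Cercam* and *Osbp2* for *Cd55*, *Msrb3* and *P4ha1* for *Masp1*, and *Hoxd9* and *Sipa1l1* for *Clu*. *Clu* had 282 genes with r above 0.9 and *C3* had 1. The 18 cultures come from 6 lines, so a pattern that separates 1 line from the rest gives a high r with many genes.

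The rest of the complement system ranged from undetected to abundant transcripts in these cells. Of 53 other complement genes listed, 52 had a row and 33 stayed under 1 CPM in every line. Enough counts for the test were found for 24, beside 15207 of the 35275 genes in the whole table. None of the 24 passed the genotype test in edgeR, 6 had an unadjusted p under 0.05 (22.4% of all genes), and their median log2 fold change was -0.38. DESeq2 on the 6 lines called 7 of 33, 4 higher and 3 lower, where it called 12% of all genes, 4.74% higher and 7.21% lower. In 9 of the 24 every line of one genotype lay above every line of the other, as in 31.4% of all genes.

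**Figure D5:**
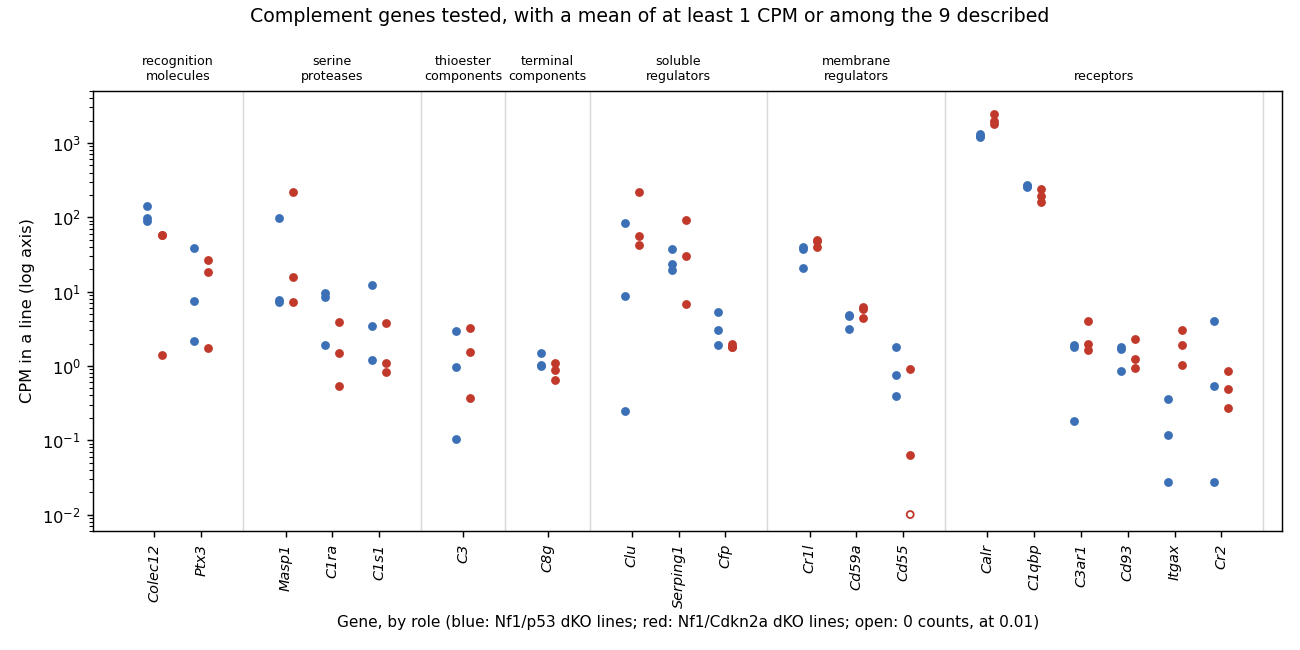
CPM (log axis) in each line of 19 complement genes, those tested that had a mean of at least 1 CPM or belong to the 9 described, ordered by role, with *Nf1*/*p53* dKO lines in blue and *Nf1*/*Cdkn2a* dKO lines in red, and open circles for 0 counts drawn at 0.01. The multifunctional proteins *Calr* and *C1qbp* lie above 100 in every line.

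Among recognition molecules, which detect targets, the 3 chains of C1q had 12 counts together in the 18 libraries. The scavenger collectin *Colec12* stood at 98.2, 140 and 89.4 CPM in the p53 lines and 57.1, 1.41 and 58.2 CPM in the Cdkn2a lines (log2 fold change -1.49, adjusted p = 0.449, edgeR), with Cdkn2a line 2 far below the other lines. The pentraxin *Ptx3*, which binds C1q, was at 7.50, 39.2 and 2.16 against 18.4, 1.73 and 26.3 CPM. As for *Masp1*, its 2 highest values were in p53 line 2 and Cdkn2a line 3. Of the terminal components, which build the membrane attack complex, 1 of 6 was tested, *C8g* (0.641 to 1.48 CPM).

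Among regulators, properdin (*Cfp*), which stabilizes the alternative convertase, stood at 5.37, 3.08 and 1.94 CPM against 1.78, 1.79 and 1.99 CPM (adjusted p = 0.277, edgeR). The membrane regulators *Cr1l* and *Cd59a*, which limit convertases and the membrane attack complex, stood at 20.8 to 49.0 and 3.18 to 6.19 CPM. *C4bp*, which acts on C4b and was named after its values were seen, stood at 0.0386, 0.0141 and 0 CPM in the p53 lines and at 0.545, 0.173 and 0.422 CPM in the Cdkn2a lines (adjusted p = 0.0696, edgeR). Of the receptors, *Itgax*, a subunit of complement receptor 4, stood at 0.116, 0.353 and 0.0277 CPM in the p53 lines and 3.03, 1.04 and 1.94 CPM in the Cdkn2a lines (adjusted p = 0.0920, edgeR). *Cr2* stood at 4.07, 0.537 and 0.0277 CPM against 0.273, 0.490 and 0.860 CPM. The C1q-binding proteins *Calr* and *C1qbp* act mainly inside the cell, and both kept their genotypes apart: *Calr* at 1194 to 1332 against 1807 to 2470.0 CPM, and *C1qbp* at 254 to 270 against 162 to 238 CPM, with adjusted p = 0.0787 and 0.225 by edgeR. DESeq2 on the 6 lines called *C4bp*, *Itgax* and *Calr* higher in *Nf1*/*Cdkn2a* dKO.

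Complement transcription is known to respond to interferon, interleukin-6 and NF-kB signalling. All 27 genes listed for these pathways were tested, and none passed in edgeR between genotypes (median log2 fold change 0.02), while 9 had an unadjusted p under 0.05 (22.4% of all genes). DESeq2 on the 6 lines called 5 of 26, *Cebpa*, *Cebpd*, *Irf1*, *Jak2* and *Osmr* (12% of all genes). *Irf1*, named after its values were seen, stood at 32.0, 29.9 and 58.8 against 10.8, 11.4 and 15.9 CPM (log2 fold change -1.66, adjusted p = 0.0554, edgeR). In edgeR *Irf1* passed without the filter on low counts (1.72% of all genes called) and with raw total counts (2.78%). The receptor subunit *Il6st* (150 to 258 CPM) and the kinase *Jak1* (171 to 210 CPM) were abundant in each line. *Cebpd* and *Cebpa*, both C/EBP factors, had opposite signs and did not pass the threshold in edgeR with the filter on low counts, while *Cebpd* passed without the filter: *Cebpd* stood at 15.6, 12.0 and 5.05 against 40.4, 96.1 and 116 CPM (log2 fold change 2.95, adjusted p = 0.0528, edgeR), and *Cebpa* at 9.70, 15.3 and 48.0 against 4.84, 1.25 and 2.13 CPM (-3.15, adjusted p = 0.0891, edgeR). Of 15 other acute phase genes, which the liver makes in inflammation, 4 were tested and none passed in edgeR, with 2 at an unadjusted p under 0.05 (22.4% of all genes). DESeq2 on the 6 lines tested 8 and called 2, *Cp* and *Serpina3g* (12% of all genes). The copper carrier *Cp* stood at 26.1, 5.23 and 34.0 CPM against 45.3, 86.8 and 147 CPM (log2 fold change 2.09, adjusted p = 0.162, edgeR). Limma-voom with lines as random effects also called *Cp*, in a fit that called 16.6% of all genes, 8.73% as higher.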

How the data were processed

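RNA was measured in 18 libraries of untreated MPNST cultures. The authors deposited raw counts per gene (Ensembl ID and symbol), not normalized. The submitters' processing notes name CASAVA, STAR 2.5, DESeq2 1.14.1 and GRCm38 (mm10). The counting tool, annotation and strand setting are not given in the sources used here. Groups, lines and cultures follow the sample titles, and 0 count columns lacked a sample. No 2 cultures of a line agreed within sampling noise (chi-square per degree of freedom 3.57 to 29.2 in 18 pairs).

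Counts were summed per line, filtered with filterByExpr (minimum count 10, total 15), scaled by TMM and tested two-sided with edgeR 4.0.16 (glmQLFit, glmQLFTest, R 4.3.3) with Benjamini-Hochberg adjustment over all genes. The standard error is the log2 fold change divided by the square root of F. Lines of a genotype were compared by a quasi-likelihood F-test on the 18 cultures. Alternatives used DESeq2 1.42.0, limma 3.58.1 (voom), other scalings and filters, blocks and each line or culture number left out. Scripts were tested on simulated data. Positions and merged exon lengths come from GENCODE M21 (GRCm38), which holds 34490 of the 35275 IDs.

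The members and gene lists were chosen with earlier results of these data known. Named beyond the 9 members are called genes and, in each list, the 2 highest and the 2 with the largest fold change at a mean of at least 1 CPM, the 3 genes most alike to each member, paralogs, targeted genes and markers. Exceptions are stated.

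A result from the listed genes is not reported here.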

Additional observations from a re-analysis of the deposited data

Results flagged for a closer look

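In 18 sets of 9 cultures (9 genes in 2 genotypes), 1 culture stood apart from the other 8: *Cfb* was at 0.215 CPM (5 counts) in culture 3 of Cdkn2a line 1 and at 0 in the other *Nf1*/*Cdkn2a* dKO cultures. The gap test used here was given a chance rate of about 1 in 20 sets. With counts in 1 of 9 cultures the gap equals the whole range, and cultures share lines, so that rate need not hold here.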

How the results depend on the processing

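Cultures counted as separate samples gave 2 complement genes called with edgeR (6096 of all genes) and 2 with DESeq2 (7186), and limma-voom, with lines as random effects, gave 1 (2173). The first 2 take cultures of a tumor as independent, and limma-voom takes 1 correlation within lines for all genes. The cause of the differing counts was not tested. *C1ra* was -1.79 in both edgeR and DESeq2 (adjusted p = 0.00643 and 5.08e-04), *C1s1* -1.59 and -1.60 (adjusted p = 0.0270 and 0.00718), and *Clu* 3.72 and *Serping1* -0.050 in limma-voom. DESeq2 on the 6 lines called 2060 genes and raw total counts 423, with no complement gene called, though DESeq2 gave *Masp1* no adjusted p. Raw totals moved the median log2 fold change of all genes from -0.02 to -0.16.

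Line number as a replicate block called 0 genes, with 2740 at an unadjusted p under 0.05 in edgeR, and turned *Serping1* to -0.029. Culture number as a replicate block on 18 cultures called 5681 genes (43.3%) and 2 complement genes, *C1ra* (-1.80) and *C1s1* (-1.59). Same-numbered lines did not deviate together (r = -0.099, -0.133 and -0.085), 0 of 6 correlated best with its own number, and the numbers name samples only.

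With 1 line left out, 0 to 172 genes and none of the complement genes were called. The log2 fold change ran from -2.72 to -1.31 for *C1ra*, -2.55 to -0.30 for *C1s1*, -0.47 to 1.67 for *C3* (-0.18 without p53 line 1, -0.47 without Cdkn2a line 2), -4.90 to -0.84 for *Cd55*, 0.70 to 4.56 for *Clu*, -1.70 to 3.44 for *Masp1* and -0.56 to 1.17 for *Serping1*, the last 2 negative without Cdkn2a line 3. All 7 genes differed among lines in both genotypes, except *Cd55* in *Nf1*/*p53* dKO without culture number 2. DESeq2 size factors, upper-quartile scaling, no filter and a filter of 10 counts in every line kept the direction of each gene they tested, with no complement gene called, and the last tested neither *C3* nor *Cd55*. With 3 lines a genotype and a wide spread between lines, even large genotype differences could go undetected, also in genes with many counts. *Masp1* and *Clu*, with 23539 and 27494 counts, had standard errors of 1.52 and 1.58 on the log2 scale, beside 1.45 for *Cd55*. *C3*, *Cd55*, *C4b* and *Cfb* also had few counts.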
